A study of Mus musculus with 6 samples.

Results

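Dense clusters of accessible chromatin were described in mouse liver. They are stretches in which 5 or more consecutive accessible intervals followed each other on a chromosome with no gap longer than 3 kb. The members are all intervals in such runs. They were chosen from interval positions alone, so the number of runs, their gaps, spans and densities are a description and no test was made on them. Of 120905 intervals, 400 (0.331%) met the rule, in 75 runs on 17 of 21 chromosomes. The other 120505 intervals stood alone or in shorter chains.

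ATAC-seq, in which a transposase cuts open DNA and attaches sequencing adapters, was carried out on 6 libraries. The inbred strains C57BL/6J and 129S1/SvImJ gave 3 libraries each, all from wild-type males that received a high-fat diet. The labels do not say whether the replicates came from separate animals, and they carry an antibody entry naming Esrrg, which ATAC-seq does not use. The deposited list combined both strains and gave positions only, so the strains were not compared and the read depth behind each interval is unknown. An interval centre lay within 1 kb of a start of 7 of 12 hepatocyte marker genes (58.3%), 6 of 16 macrophage and Kupffer cell markers (37.5%), 2 of 14 lymphocyte markers (14.3%) and 61.3% of all protein-coding genes. The shares were 53.3% for sinusoidal endothelial, 60% for stellate cell and fibroblast, 63.6% for cholangiocyte, 33.3% for skeletal muscle and 66.7% for neuronal markers, so this measure did not set hepatocytes apart. The hepatocyte markers Alb, Apoa1, Tat, Cyp2e1 and Asgr1 had none in that window.

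Accessible sites are short stretches of DNA that are not wrapped in nucleosomes, mostly promoters and enhancers held open by bound transcription factors. Several enhancers can stand close together beside a gene that a cell type uses heavily, and such groups are well known at hepatocyte genes that encode transcription factors, plasma proteins and metabolic enzymes. Arrays of small genes, such as transfer RNA (tRNA) genes, can also place many open sites in a short stretch, because RNA polymerase III machinery binds inside each tRNA gene. In loci that hold near-identical copies of a sequence, reads cannot be assigned to 1 copy, so intervals there are uncertain.

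RefSeq promoter windows (build GRCm38.p6, which is mm10; 250 bases before to 50 after a start) overlapped 25 of the 395 members on the chromosomes of the promoter table (6.33%, 4.14 to 9.20), in 18 runs. Outside the runs the share was 8.79%. The stretches below are the 250 bases before the start, 5′ to 3′ on the strand of the gene, and capitals mark the bases that lie inside an interval of the run. Gsta2, Gm9968 and C2cd4d are shown because they came from the naming rule. Epb41l4b, Mmp15 and Tnfaip8l1 were added after their values were seen, to show CpG-rich starts.
Gsta2, chr9:78347146-78347395, minus strand: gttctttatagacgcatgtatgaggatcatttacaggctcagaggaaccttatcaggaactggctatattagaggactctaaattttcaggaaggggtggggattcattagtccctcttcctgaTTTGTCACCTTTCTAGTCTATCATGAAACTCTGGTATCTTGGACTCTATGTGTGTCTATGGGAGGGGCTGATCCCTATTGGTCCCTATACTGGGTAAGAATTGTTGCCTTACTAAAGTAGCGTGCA
Gm9968, chr16:43363667-43363916, minus strand: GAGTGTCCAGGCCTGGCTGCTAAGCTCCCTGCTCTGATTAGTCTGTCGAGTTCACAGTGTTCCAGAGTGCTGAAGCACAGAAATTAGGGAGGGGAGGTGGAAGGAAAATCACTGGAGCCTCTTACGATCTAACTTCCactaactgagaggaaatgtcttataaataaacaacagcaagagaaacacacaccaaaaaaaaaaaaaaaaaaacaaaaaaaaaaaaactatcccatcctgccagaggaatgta
C2cd4d, chr3:94362194-94362443, plus strand: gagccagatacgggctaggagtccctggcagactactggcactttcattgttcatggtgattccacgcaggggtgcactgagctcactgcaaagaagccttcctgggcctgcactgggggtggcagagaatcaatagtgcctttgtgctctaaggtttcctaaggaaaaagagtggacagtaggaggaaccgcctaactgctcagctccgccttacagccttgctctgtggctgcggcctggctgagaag
Epb41l4b, chr4:57143157-57143406, minus strand: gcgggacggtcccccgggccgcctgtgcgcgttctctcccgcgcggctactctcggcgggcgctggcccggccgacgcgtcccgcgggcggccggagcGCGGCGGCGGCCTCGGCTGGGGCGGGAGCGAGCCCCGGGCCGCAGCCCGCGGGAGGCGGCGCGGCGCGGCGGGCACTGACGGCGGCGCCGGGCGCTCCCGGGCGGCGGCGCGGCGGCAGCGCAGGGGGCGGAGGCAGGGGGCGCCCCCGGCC
Mmp15, chr8:95352046-95352295, plus strand: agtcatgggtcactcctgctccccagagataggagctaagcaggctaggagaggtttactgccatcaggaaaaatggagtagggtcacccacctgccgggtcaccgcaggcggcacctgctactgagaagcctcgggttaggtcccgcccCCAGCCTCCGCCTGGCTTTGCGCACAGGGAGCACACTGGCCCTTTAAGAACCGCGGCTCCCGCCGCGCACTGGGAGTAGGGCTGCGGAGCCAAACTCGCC
Tnfaip8l1, chr17:56162241-56162490, plus strand: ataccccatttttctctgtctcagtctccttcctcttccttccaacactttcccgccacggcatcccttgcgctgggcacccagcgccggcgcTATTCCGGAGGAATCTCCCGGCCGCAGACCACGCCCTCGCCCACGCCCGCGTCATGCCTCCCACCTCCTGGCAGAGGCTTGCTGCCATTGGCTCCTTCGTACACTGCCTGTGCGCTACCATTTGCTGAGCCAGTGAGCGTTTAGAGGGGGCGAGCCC

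These 6 promoters differed in base composition. The stretch of Epb41l4b, a gene for a membrane-cytoskeleton linker protein, held 52 CG pairs and was 88% G or C, and 152 of its 250 bases were inside an interval of 201 bp centred 52 bp before the start. The stretch of Gsta2, which encodes a glutathione S-transferase, held 2 CG pairs at 43.2% G or C, and 126 of its bases were inside an interval of 223 bp centred 15 bp before the start. Gm9968, a long noncoding RNA gene inside Zbtb20, also held 2 CG pairs and had 137 bases covered. In C2cd4d no base was covered, and the nearest interval of the run was centred 928 bp past the start.

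A search of both strands for short motifs found few in the shown stretches. Gsta2 held CCAAT on the opposite strand at -50 to -46, counted from the base before the start as -1, inside the interval. Tnfaip8l1 held CCAAT on the opposite strand at -71 to -67, also inside its interval. Epb41l4b held the GC box GGGCGG at 4 places, 3 of them inside the interval, and Mmp15, the gene of a membrane-bound matrix metalloproteinase, held 1 that lay outside. Gm9968 held TATAAA at -92 to -87, outside its interval. The TATAAA of Gsta2 lay at -246 to -241 on the opposite strand.

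Over the whole windows, the promoters touched by intervals of the runs had a median of 10 CG pairs (22 windows of 20 genes), against 21 in the 12128 windows touched by other intervals and 7 in all 32851 windows. Several of the 22 belong to noncoding genes, among them Gm34325 and Gm51674, and the kinds of gene were not compared between these sets. GGGCGG was in 9 of the 22 (40.9%), in 64.9% of those touched by other intervals and in 35.7% of all windows. CCAAT was in 11 (50.0%), against 38.8% and 37.4%. AGGTCA, a core sequence that nuclear receptors bind, was in 4 (18.2%), against 12.6% and 16.3%, and TATAAA in 2 (9.09%), against 6.55% and 13.6%. The E-box CACGTG, the cyclic AMP response element TGACGTCA and the C/EBP motif (TTGCGCAA or a longer variant of it) were in none of the 22. They were in 9.58%, 3.19% and 0.371% of the windows touched by other intervals, and in 7.15%, 1.79% and 0.237% of all windows. The 22 windows are not all separate. Those of Wdr89 and the noncoding gene Gm34717 lie on opposite strands over almost the same bases, and their matches were counted for both genes. The nuclear receptor core sequence is among these matches, so its 18.2% is not evidence of an excess over all windows. A match describes letters only, and the absence of a match says only that these letters are not in the window.

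Long runs were rare. Of the 75, 61 held 5 intervals, 9 held 6, 4 held 8 and 1 held 9. Chains of exactly 4 intervals, just short of the rule, numbered 411, and there were 2870 chains of 3, 16084 of 2 and 78083 single intervals. A run spanned 7.20 kb at the median (2.12 to 15.4 kb) with 0.710 intervals per kb (0.451 to 2.36), and its intervals covered a median of 15.2% of that span. All 75 runs together spanned 552.6 kb.

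Gaps within the runs were spread over the whole permitted range. The 325 gaps had a median of 1426 bp, from 2 to 2989 bp. Gaps up to 500 bp made up 20.6%, and 32.9% exceeded 2000 bp. In 11 runs the largest gap was over 2900 bp, so these runs only just met the limit. The largest 3 gaps inside were 2971, 2982 and 2989 bp, and the smallest 3 between a run and the next interval outside were 3298, 3482 and 3592 bp. With a limit of 2 kb 16 runs were found, among them those at Ntrk2, Ccdc141, L3mbtl3, Mogat2 and beside Apoa5.

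**Figure D1:**
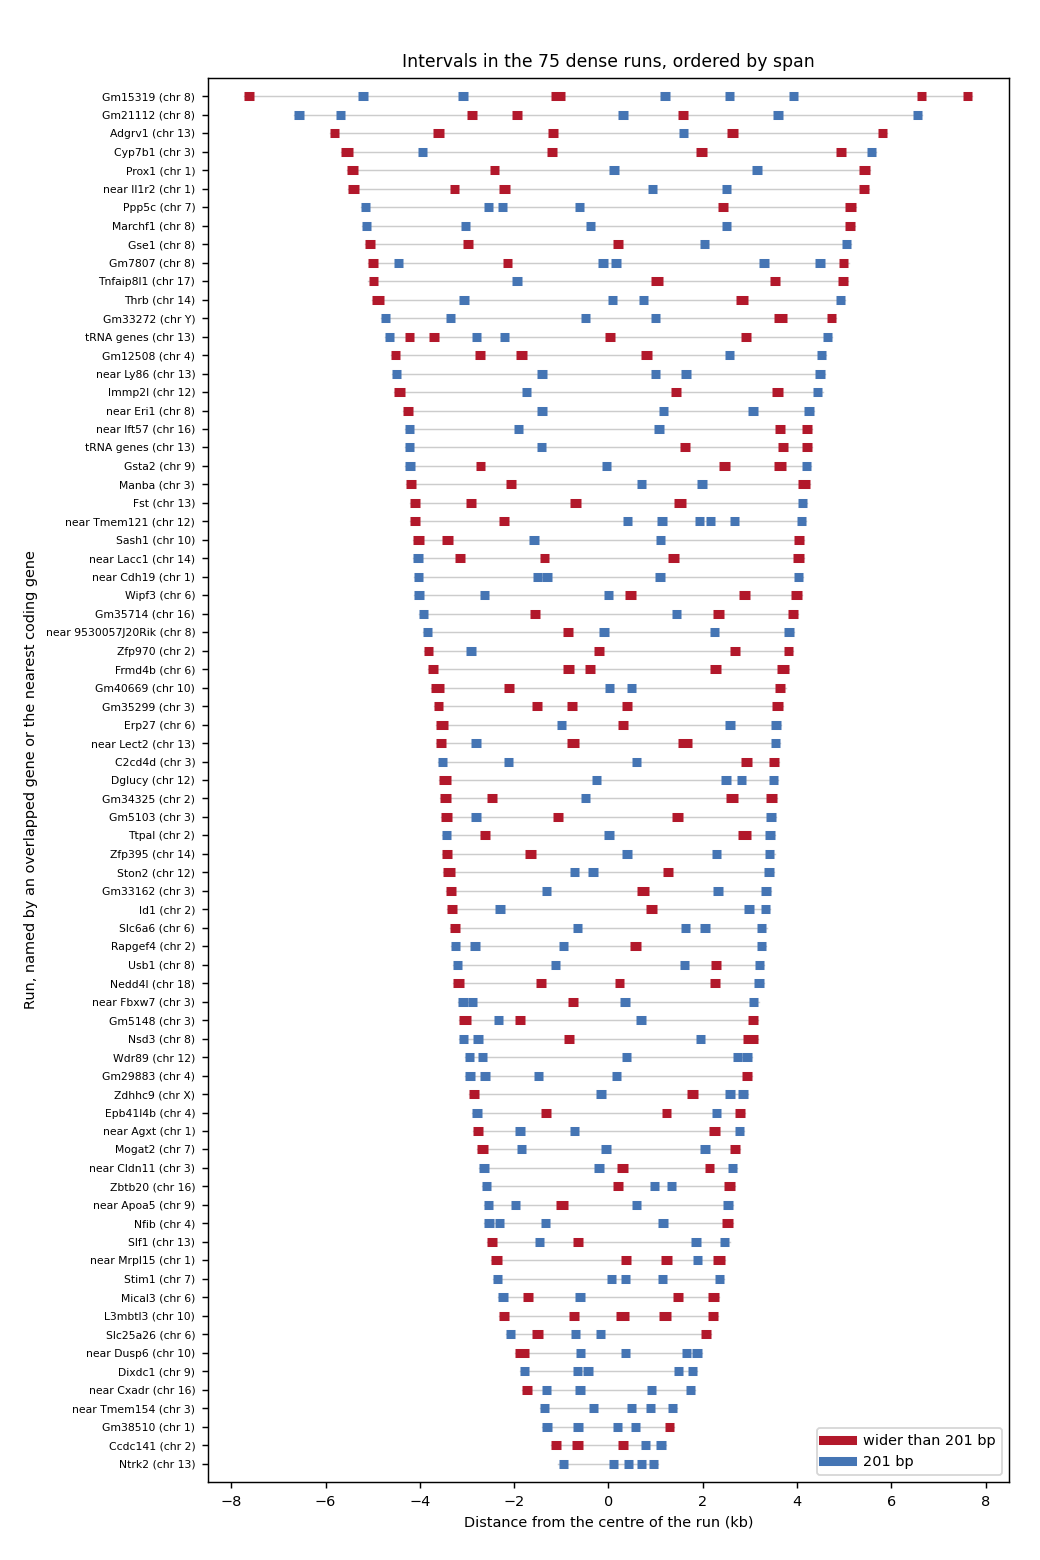
Intervals of all 75 runs, 1 row per run, plotted as distance from the centre of the run in kb and ordered by span; red marks intervals wider than 201 bp, blue those of exactly 201 bp. Spans range from 2.12 kb in Ntrk2 at the bottom to 15.4 kb at Gm15319 at the top, and widths are mixed within most runs.

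The most crowded run lay in Ntrk2, the gene of a neurotrophin receptor, with 5 intervals in 2.12 kb (chr13:58912646-58914762), or 2.36 per kb. Its last 3 gaps were 123, 69 and 56 bp, and all 5 intervals were 201 bp wide. Ccdc141 had 5 in 2.44 kb (2.05 per kb), Gm38510 with Gm7609 5 in 2.80 kb (1.79 per kb) and a stretch 25.3 kb from Tmem154 5 in 2.92 kb (1.71 per kb). The run near Cxadr, which encodes a virus receptor of cell junctions, followed with 1.36 per kb. Next came Dixdc1 (1.33), the run 86.5 kb from Dusp6 (1.26), Slc25a26 (1.15), L3mbtl3 (1.08) and Mical3 (1.07), all per kb.

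Intervals in the runs were narrower than the others. Exactly 201 bp, the narrowest width in the list, was the width of 224 members (56.0%), and 176 (44.0%, exact 95% interval 39.1 to 49.0) were wider. Outside the runs 64826 of 120505 (53.8%) were wider. Intervals over 250 bp made up 5% of the members (20) and 9.07% of the others. The widest member measured 327 bp, at the end of the run in Nsd3, a histone methyltransferase gene, against 401 bp outside. The interval given covers counting error only and treats neighbouring intervals as independent, which they may not be.

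The width difference held on 13 of the 17 chromosomes that had a run. Members were wider more often on chromosomes 10, 14, 17 and 18, of which 17 and 18 had 5 members each. By size of chain, the share of wider intervals was 53.1% for single intervals, 56.0% in pairs, 53.1% in chains of 3, 47.6% in chains of 4, 43.0% in runs of 5 and 47.4% in runs of 6 to 9. Joining all intervals within 500 bp of each other before the runs were called turned the direction, to 60.4% in runs against 57.1% outside. Joined stretches count as wider by construction.

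**Figure D2:**
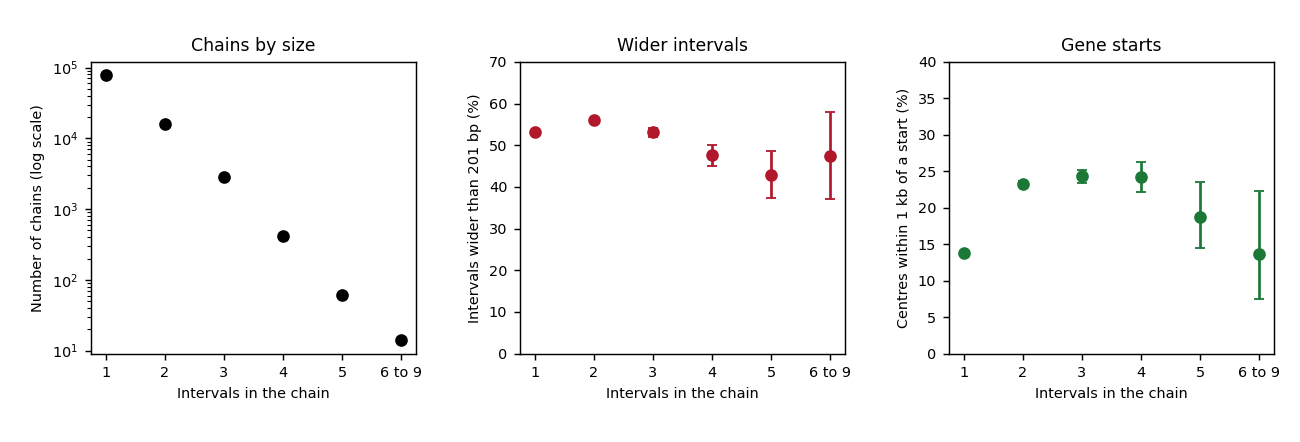
Number of chains (log axis), percent of intervals wider than 201 bp and percent of interval centres within 1 kb of a gene start, by number of intervals in a chain of gaps up to 3 kb; bars are exact 95% binomial intervals. The 75 runs are the last 2 positions (61 runs of 5 and 14 of 6 to 9), where 43.0% and 47.4% of intervals were wider.

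Within a run the widest interval had no fixed place. Among the 54 runs of 5 that held a wider interval, it stood at place 1 in 13, at place 2 in 6, at place 3 in 10, at place 4 in 13 and at place 5 in 12. In 7 runs every interval was 201 bp wide. These were Ntrk2, Dixdc1, Stim1, Wdr89 and the runs nearest Tmem154 (25.3 kb), Ly86 (173.1 kb) and Cdh19 (409.1 kb). Every interval was wider in 3 runs, at L3mbtl3, Frmd4b and the noncoding gene Gm35299. These 3 were also the only runs of 5 that remained after all 201 bp intervals were taken out of the list.

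The 5 runs with the highest mean width were at Frmd4b (233 bp), 7.52 kb from Lect2 (232 bp), at L3mbtl3 (229.2 bp), at Nsd3 (228.6 bp) and at the noncoding gene Gm34325 (225.8 bp). Frmd4b encodes a scaffold protein, and its 5 intervals were 205, 239, 224, 248 and 249 bp wide. L3mbtl3 encodes a reader of methylated lysine, and its run crossed both of its RefSeq starts with widths of 208, 202, 275, 244 and 217 bp. Lect2 encodes a protein that hepatocytes secrete. The run upstream of it held intervals of 206, 201, 255, 297 and 201 bp.

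With all genes and a window of 1 kb, gene starts took a similar share of intervals inside and outside the runs. A centre lay within 1 kb of a start (or of either end, for a gene with no strand in the promoter table) in 70 of 400 members (17.5%, 13.9 to 21.6) and in 17.2% of the others. Elsewhere inside a gene lay 191 members (47.8%) against 45.5%, and between genes 139 (34.8%) against 37.3%. The similarity depended on how starts were counted. With protein-coding genes only, 8.25% of members and 13.2% of the others lay at a start, and with a window of 5 kb the shares were 38.5% and 30.3%. The share at starts was above that of the other intervals on 9 and below on 8 of the 17 chromosomes. Intervals in chains of 2, 3 and 4 had shares at starts of 23.2%, 24.3% and 24.1%, against 13.9% for single intervals and 18.7% and 13.7% in runs of 5 and of 6 to 9.

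Runs seldom lay far from coding genes. The median distance of a member to the nearest protein-coding start was 28.5 kb (quartiles 8.38 and 67.3 kb), against 32.6 kb (7.91 and 122.1 kb) outside the runs. More than 100 kb from any such start lay 63 members (15.8%, 12.3 to 19.7) and 28.3% of the others. Within 10 kb the shares were 27.5% and 28.2%. Members of 1 run share their surroundings, so these shares rest on 75 places and not on 400 independent ones.

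The runs were spread over the genome with few close neighbours. Chromosome 3 had 10 runs, chromosome 8 had 9 and chromosome 13 had 8, while chromosomes 5, 11, 15 and 19 had none. The median distance from 1 run to the next on its chromosome was 14.98 Mb, and 5 pairs were under 1 Mb apart. A run had a median of 9 further intervals within 50 kb of its edges (0 to 23). All intervals of the list had a median of 6 others within 50 kb of their centres. These medians were measured differently, from the edges of runs and from the centres of intervals. Both rest on positions that the rule used, so they cannot be compared.

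**Figure D3:**
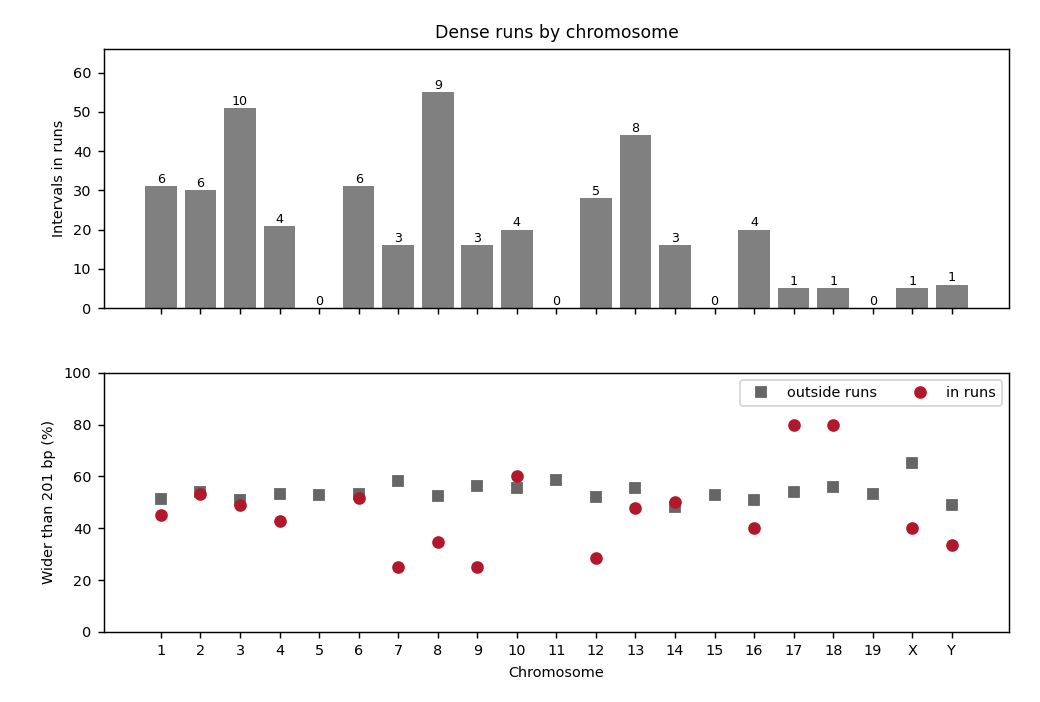
Number of intervals in runs by chromosome, with the number of runs above each bar, and percent of intervals wider than 201 bp in runs (circles) and outside runs (squares). Chromosome 8 had the most members (55), and the circle lies below the square on 13 of 17 chromosomes.

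Protein-coding genes were overlapped by 45 of the 75 runs (60.0%, 235 intervals). A further 13 runs (76 intervals) overlapped only genes of other kinds, and 17 (89 intervals) overlapped no gene. The 45 runs overlapped 48 coding genes, and no gene was overlapped by 2 runs. These 48 genes had a median length of 89.1 kb against 17.2 kb for all 21887 coding genes. Long genes are overlapped more often by any interval. Neither this length nor the share overlapping a coding gene was computed for intervals outside the runs. In 30 cases the run lay wholly inside a coding gene, 20 of them in genes over 100 kb.

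The genes described next were picked from those at the runs and are not evidence of a theme. Cyp7b1, which hydroxylates oxysterols in the alternative pathway of bile acid synthesis, held 6 intervals in 11.4 kb (chr3:18158476-18169829) of its 171.9 kb. They were 257, 201, 214, 239, 203 and 201 bp wide. The gene and 10 kb to either side held 20 intervals in all, so 30% of them were in the run. The members lay 74.2 to 85.3 kb from the nearest start of the gene or its ends.

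Gsta2 conjugates glutathione to electrophiles and belongs to a family of similar neighbouring genes. Its run of 6 (chr9:78340394-78349006) ran from inside the gene across the start shown above to an interval centred 1761 bp before it. The widest interval, 255 bp, was centred 1196 bp from the start. Of 8 intervals in and around the gene 6 were in the run (75%). Because the family has closely similar copies, the intervals in Gsta2 are uncertain.

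Mogat2, a monoacylglycerol acyltransferase gene of triglyceride synthesis, held a run of 5 in 5.57 kb (chr7:99224726-99230293), all inside the gene, and 8 intervals in all with its flanks. Dgat2, which adds the last acyl chain of a triglyceride, lay 42.0 kb away. The run beside Apoa5, whose product promotes clearance of triglyceride-rich lipoproteins, held 5 intervals in 5.28 kb (chr9:46256192-46261467). It ended 7.14 kb upstream of the Apoa5 start and lay 12.7 kb from Apoa4, an apolipoprotein gene of the same cluster.

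The run upstream of Agxt, a peroxisomal aminotransferase gene that detoxifies glyoxylate, ended 6.23 kb before its start and held intervals of 222, 201, 201, 237 and 201 bp. The run at Gm34325 lay 17.8 kb from Gatm, the gene of the first enzyme of creatine synthesis. Slc6a6, the taurine transporter gene, held a run of 5 inside its 75.02 kb, and 15 intervals in all with its flanks.

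Prox1, a homeobox factor of hepatocytes and lymphatic endothelium, held 5 intervals in 11.1 kb (chr1:190122420-190133503) in the part of the gene farthest from its start, 36.0 kb downstream of it. They were 240, 205, 201, 201 and 225 bp wide, and the density of 0.451 per kb was the lowest of all runs. The gene and its flanks held 8 intervals, 5 of them in the run. Thrb, the thyroid hormone receptor gene whose product is the main form in liver, held 6 (chr14:17894821-17904869) among 46, at 275, 201, 201, 201, 245 and 201 bp. Zbtb20, a zinc finger repressor of fetal liver genes, held 5 among 81, and the run crossed the start of Gm9968.

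Nfib, a nuclear factor I gene, held 5 among 35 intervals. Id1 encodes a dimerization partner that blocks basic helix-loop-helix factors. Its run of 5 (chr2:152735139-152741994) was longer than the gene itself, which spans 1.16 kb, and a 201 bp interval was centred 20 bp from the lower-coordinate end of Id1. The gene and its flanks held 6 intervals, 5 of them in the run. Fst encodes follistatin, a secreted inhibitor of activin, and all 5 intervals of the gene and its flanks belonged to its run. The run across the lower-coordinate end of Ttpal, a gene of the tocopherol transfer protein family, lay 23.0 kb from Hnf4a, a central hepatocyte transcription factor gene.

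**Figure D4:**
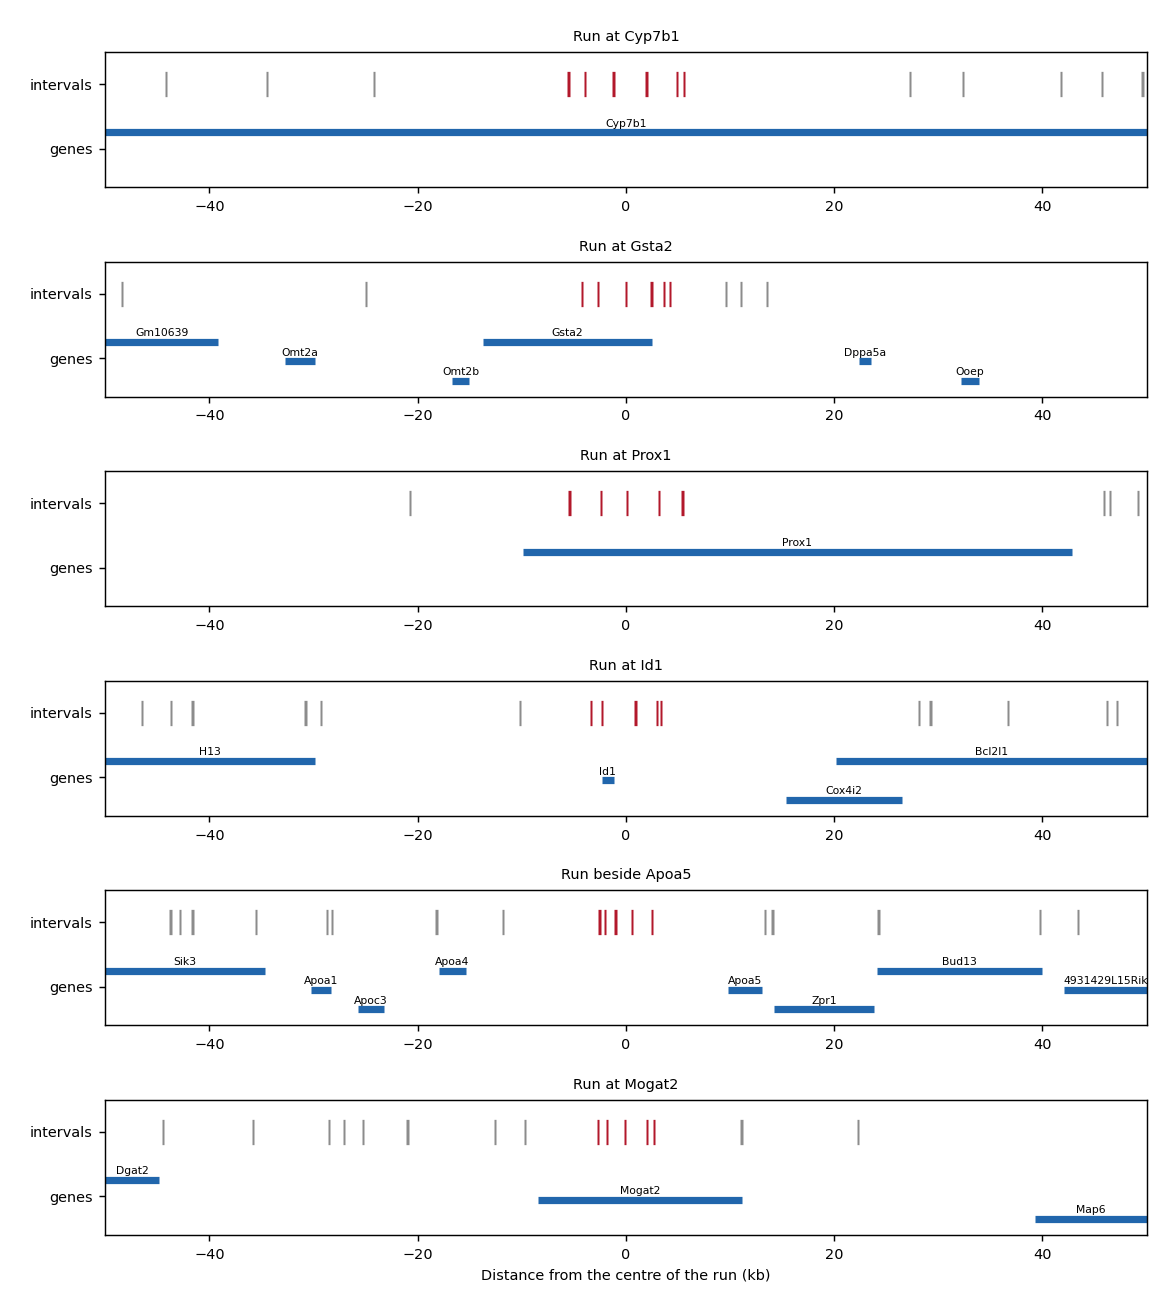
Runs at Cyp7b1, Gsta2, Prox1, Id1, Apoa5 and Mogat2, with intervals of the run in red, other intervals in grey and protein-coding genes in blue, against distance from the centre of the run in kb. The run lies inside the gene at Cyp7b1, Prox1 and Mogat2, crosses the start of Gsta2, reaches past both ends of Id1, and lies 7.14 kb from Apoa5.

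Other runs lay inside long genes and took a small share of their intervals. Adgrv1, an adhesion receptor gene of 538.3 kb, held a run of 6 among 49 intervals. Runs of 5 lay in Immp2l, a mitochondrial peptidase gene (among 62 intervals), Gse1 (46), Nedd4l, a ubiquitin ligase gene (41), Sash1 (39), Marchf1, another ubiquitin ligase gene (39), Mical3 (38) and Frmd4b (34). Ston2 had 28 intervals in all, Rapgef4, a cyclic AMP sensor gene, 26, Ntrk2 21, Stim1, the calcium sensor gene of the endoplasmic reticulum, 20, and Dixdc1, Nsd3 and Ccdc141 19 each. In these genes a run took between 8.06% (Immp2l) and 26.3% (Nsd3, Dixdc1 and Ccdc141) of the intervals. Epb41l4b held 5 of 18, and LOC108168956, a coding gene model of 1.39 kb beside it, had 5 of 5.

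In the remaining genes the run took a larger share. Zfp970, a zinc finger gene, held 5 intervals with its flanks, all in the run. Ppp5c, a protein phosphatase gene, had 6 of 9 in a run that began 5.83 kb downstream of the start of Ccdc8. The runs took 5 of 8 intervals in Erp27, Zfp395 and Zdhhc9, 5 of 9 in L3mbtl3 and Tnfaip8l1, 5 of 7 in Usb1 and 5 of 8 in its neighbour Mmp15. In Wipf3 the run took 6 of 15, in Slc25a26, the mitochondrial carrier gene of S-adenosylmethionine, 5 of 14, in Manba, a lysosomal mannosidase gene, 5 of 13, in Slf1 5 of 11, in Wdr89 5 of 10 and in Dglucy 5 of 15. Gm5148 had 5 of 8.

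The gene lists covered liver functions, markers of several cell types and housekeeping genes. Of 322 listed genes 6 (1.86%) had a run within the gene or 10 kb to either side, against 0.283% of all coding genes (62 of 21887). Among them were Prox1 and Zbtb20 (2 of 28 liver transcription factors), Cyp7b1 (1 of 21 genes of cholesterol and bile acid metabolism), Apoa5 (1 of 26 plasma protein genes) and Id1 (1 of 25 stress and immediate early genes). The median length was 38.6 kb for the liver transcription factor genes and 22.0 kb for the cholesterol and bile acid genes. It was 7.46 kb for the plasma protein genes and 2.88 kb for the stress and immediate early genes, against 17.2 kb for all coding genes. Long genes can meet this criterion more often, but whether length bears on these shares was not tested. The lists were drawn up with earlier results of these data known and were not tested.

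No gene of several further lists had a run. They were lipid synthesis and storage (0 of 23), fatty acid oxidation and ketogenesis (0 of 21), glucose and insulin metabolism (0 of 21), urea cycle, amino acid and detoxification (0 of 20) and housekeeping (0 of 20). The hepatocyte markers (0 of 12) had none either. Markers of other cells were also at 0, with 16 macrophage and Kupffer cell, 14 lymphocyte, 15 sinusoidal endothelial, 15 stellate cell and fibroblast, 11 cholangiocyte, 12 skeletal muscle and 12 neuronal genes. At a background of 0.283% a list of this size would hold few runs in any case.

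A pair of runs lay among tRNA genes on chromosome 13, between butyrophilin and histone genes. One held 5 intervals (chr13:23498067-23506693) and the next, 10.5 kb on, held 8 (chr13:23517166-23526661). Of their 13 intervals 11 overlapped a tRNA gene, each a different one. The genes were n-TWcca3, n-TSaga7, n-TRtcg3 and n-TWcca4 in the first run, and n-TGgcc6, n-TMcat6, n-TStga1, n-TQttg4, n-TQttg5, n-TSgct4 and n-TRtcg1 in the next. Of the 13 tRNA genes that these runs span, n-TMcat5 and n-TRacg4 had no interval. Elsewhere 109 of 395 annotated tRNA genes (27.6%) overlapped an interval. The runs were called from these same intervals, so the rule itself raised the share within them, and it cannot be compared with that elsewhere.

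Counted over all runs, 2.75% of members overlapped a tRNA gene against 0.0896% of the other intervals. All of these members came from the 2 runs, so the difference rests on 1 locus. Widths there were 201 to 211 bp. Spacing followed the genes, with gaps of 225, 319, 691 and 393 bp between the first 5 intervals of the longer run. The tRNA genes have near-identical copies elsewhere in the genome, so these intervals are uncertain. H4c8, a histone gene, lay 4.38 kb beyond the longer run.

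**Figure D5:**
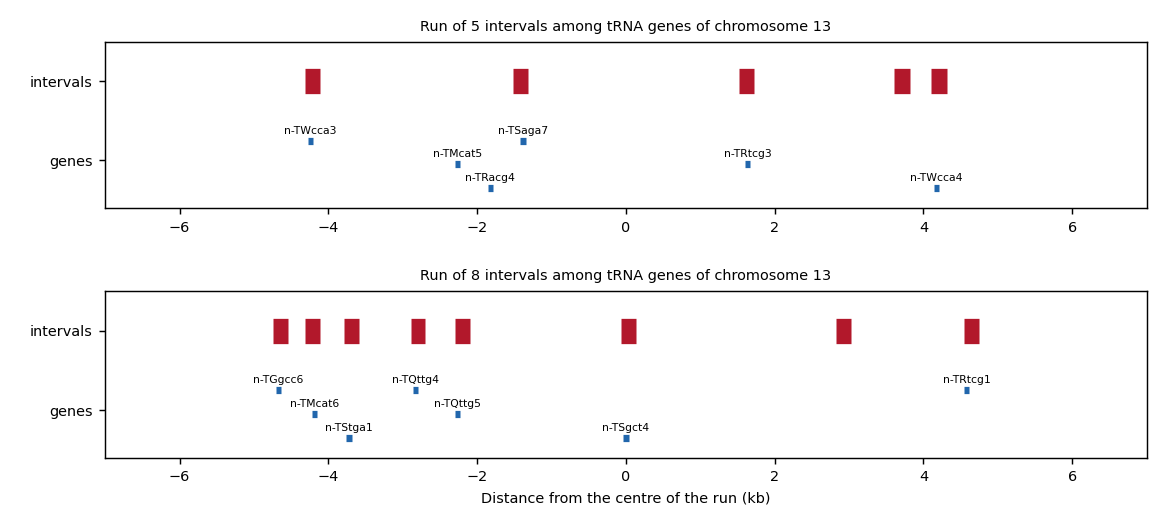
The 2 runs among tRNA genes of chromosome 13, with intervals in red and tRNA genes in blue, against distance from the centre of each run in kb. Of 13 intervals 11 sit on a tRNA gene, and 2 tRNA genes of the upper run have no interval.

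The run with the most intervals lay in a stretch of chromosome 8 with 4 runs. Between 20097333 and 20602627, which is 505.3 kb, these runs held 5, 9, 8 and 8 intervals, or 7.50% of all members. That stretch held 69 intervals, or 136.6 per Mb, against 51.0 per Mb on the whole chromosome. Its ends were set by the runs, and 30 of the 69 intervals were members. The rule itself thus raised this density, so it cannot be compared with that of the chromosome. RefSeq gives 12 genes in the stretch, 2 of them protein-coding and 8 pseudogenes of both kinds, and 10 have Gm or LOC names. The run of 9 (chr8:20327658-20343099) overlapped Gm15319 and was the longest of all at 15.4 kb. Of the 30 intervals 11 (36.7%) were wider than 201 bp, and the widest measured 307 bp.

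Spacing in these 4 runs showed 1 repeat. In the run of 9, consecutive gaps of 1165 and 1165 bp were equal, while the other gaps ran from 774 to 2507 bp. The other runs of the stretch lay 31.1 kb from the pseudogene Gm21811, at Gm7807 and 2610005L07Rik, and at Gm21112. With so many pseudogenes, near-identical copies may share reads in this stretch, and its intervals are uncertain for that reason.

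A run of 8 lay near the immunoglobulin heavy chain genes (chr12:113216088-113224488). It overlapped no gene, its nearest coding gene was Tmem121 at 26.6 kb, and Igha, the constant region gene of immunoglobulin A, lay 31.7 kb away. The first 2 intervals were 215 and 206 bp wide and the other 6 were 201 bp. Heavy chain genes are transcribed in B cells and plasma cells. The lymphocyte markers had a centre within 1 kb of a start in 2 of 14 cases and no run, as given above, and the part of such cells in this run was not tested. In bulk tissue, fewer cells of a type and less signal per cell cannot be told apart.

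On chromosome Y a run of 6 (chrY:90799294-90808955) overlapped the noncoding gene Gm33272. It held 6 of the 47 intervals of that chromosome (12.8%), and its last interval was the last of the chromosome in the list. No other interval lay within 50 kb. Whether this stretch has near-identical copies elsewhere was not checked, so the assignment of its intervals to chromosome Y is uncertain. The widths were 201, 201, 201, 201, 273 and 205 bp. Without the runs at tRNA genes, in the stretch of chromosome 8, near the heavy chain genes and on chromosome Y, 67 runs with 343 intervals remained, of which 44.9% were wider than 201 bp and 16.0% lay at starts.

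Runs over noncoding genes alone lay near a variety of coding genes. The run at Gm40669 and Gm40670 was 35.1 kb from Sowahc, that at Gm35714 21.3 kb from Sod1, the superoxide dismutase gene, that at Gm5103 8.32 kb from Mgarp, that at Gm35299 24.1 kb from Mfsd1, that at Gm29883 29.2 kb from Tmem64, and that at the pseudogene Gm12508 100.2 kb from Rad23b. A further run of 5 lay inside Gm33162. Gm35299 and Gm34325 had an interval on their RefSeq start, as did Gm5103. No miRNA hairpin of 1005 in the RefSeq table lay in a run. All 75 runs together spanned 552.6 kb, so this count says little about them.

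The 17 runs outside genes ranged from 6.23 to 409.1 kb from the nearest coding gene. Besides those beside Agxt, Apoa5, Lect2 and Tmem121, and that near Gm21811 on chromosome 8, they were nearest Cldn11 (10.7 kb), Ift57 (14.3 kb), Tmem154 (25.3 kb), Eri1 (31.2 kb), Cxadr (32.8 kb), Il1r2 (36.0 kb), Dusp6 (86.5 kb), Mrpl15 (101.2 kb), Lacc1 (138.8 kb), Ly86 (173.1 kb), Fbxw7 (215.9 kb) and Cdh19 (409.1 kb). Ppp1r3b, whose product targets protein phosphatase to glycogen in liver, lay 37.2 kb from the run nearest Eri1, on the other side of it. The run of 6 near Il1r2 (chr1:40161212-40172257) was the largest of those in this group of 12. By genes of any kind, the closest were Gm25622, a small nuclear RNA gene 1.84 kb from the run near the heavy chain genes, and Gm34853 (2.51 kb), Gm47754 (2.86 kb), Gm15518 (3.48 kb), Gm35741 (8.61 kb), E330011O21Rik (9.32 kb), Gm46836 (21.8 kb), Gm30365 (36.9 kb), Gm31096 (72.6 kb) and Gm34921 (83.1 kb), all noncoding, beside the pseudogene Gm6085 (16.5 kb). The run nearest Cdh19 was the farthest from any coding gene, and its 5 intervals of 201 bp included a pair 6 bp apart.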

How the data were processed

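Per the submitters' processing notes, the reads were handled with fastp, Bowtie2 and HOMER on build mm10. Their versions and thresholds, and how 1 list was made from 6 libraries, are not stated in the labels. The deposited list held 3 columns, chromosome, start and end, with no score or count, so interval strength and depth are unknown and an unknown threshold decided which weak sites entered the runs. The authors' starts were converted to 1-based positions. The members and gene lists were chosen with earlier results of these data known.

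Intervals were sorted, and runs were called with a largest gap of 3000 bp and at least 5 intervals in Python 3.11.15 with pandas 2.3.3 and numpy 2.4.6. The run caller was tested on simulated data. Genes came from RefSeq on GRCm38.p6 (21887 coding genes on the chromosomes used). Starts and strand came from the RefSeq promoter table, which matched 17492 coding genes. For other genes both ends of the span were used. Exons were not used. Near-identical copies of the stretches under the runs were not searched for, so intervals in runs not called uncertain here may be uncertain too. All 322 listed genes were found. The named runs were the 15 with the most intervals, the 10 densest, the 5 widest on average those of listed genes, and the 10 coding genes with the most runs, which were the 10 shortest because none had more than 1. Each run was also named by the genes it overlapped or lay nearest to, and some neighbours were added after the values were seen. Binomial intervals are exact (Clopper-Pearson, 95%, scipy 1.17.1). Results that need items withheld from the text are not reported here.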

Additional observations from a re-analysis of the deposited data

How the results depend on the processing

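The number of members depended on the rule. It was 81 with a largest gap of 2 kb, 1246 with 4 kb, 2044 with at least 4 intervals, 41 with at least 7, 182 with intervals within 500 bp joined and 15 without the 201 bp intervals. In the same settings the share of coding genes with a run was 0.0548%, 1.08%, 2.12%, 0.0183%, 0.119% and 0.00914%, and with flanks of 50 kb it was 0.717%. The share of wider members was 33.3% with gaps of 2 kb, 50.9% with 4 kb, 39.0% with at least 7 intervals and 60.4% after joining. It has no meaning without the 201 bp intervals and was not computed there. The share at starts was 22.8% in runs against 17.2% outside with at least 4 intervals, 24.4% against 17.2% with at least 7, 40% against 22.8% without the 201 bp intervals, 8.25% against 13.2% with protein-coding genes only, 12.3% against 13.6% with a window of 500 bp, and 38.5% against 30.3% with 5 kb. These settings change which intervals or starts are counted. Autosomes alone, and leaving out the runs at tRNA genes, on chromosome 8, near the heavy chain genes and on chromosome Y (an alternative added after the data were seen), gave values close to those reported for all 4 results. No paired analysis was possible because the deposited list has no value per library, and for the same reason no library could be left out and the strains were not compared. Depth is unknown, so a stretch without a run may hold sites that the authors' threshold left out.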
